A study of Mus musculus with 7 samples.

Results

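Slc4a1, Epb42, Ank1, Rhag, Rhd, Aqp1, Car1 and Car2 encode proteins of the red cell membrane, its skeleton, its channels and its carbonic anhydrases, and their messenger RNAs were followed here in B cell isolates from mouse spleen. They were chosen by name: each probe set of the array that the platform annotation assigns to one of these genes and to no other was taken, which gave 14 probe sets for 8 genes, out of 45037 probe sets and 18193 genes on the array. The transgenic (TG) mice were FVB mice with the Eu-miR-155 transgene (3 arrays), in which the immunoglobulin heavy chain enhancer drives the microRNA miR-155 in the B lineage, and the controls were Wild Type FVB mice (WT, 4 arrays). Cells were isolated from spleen with a magnetic B-cell kit, 1 array was hybridised per sample, and the labels give no age, sex or number of founder lines. The microRNA in the transgene has this mature sequence in RefSeq (GRCm38.p6), with the seed that pairs with target messengers in capitals.
mmu-miR-155-5p: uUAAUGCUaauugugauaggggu

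The red cell carries carbon dioxide by turning it into bicarbonate inside the cell and exchanging that bicarbonate for chloride across the membrane. Carbonic anhydrases, encoded by Car1 and Car2, perform the first step, and the anion exchanger encoded by Slc4a1 performs the second. The exchanger is also an anchor: ankyrin (Ank1) and the transglutaminase-like protein of Epb42 tie it to the spectrin skeleton, the Rh-associated glycoprotein (Rhag) and the Rh polypeptide (Rhd) form a neighbouring complex, and the water channel of Aqp1 lets the cell adjust its volume. In the mouse the spleen is a site of red cell formation beside the bone marrow, so a splenic isolate can hold erythroid precursors. Of these genes, Aqp1 and Car2 are known in many other tissues.

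Levels are given as the GCRMA values deposited by the authors (log2), the lowest of which was 2.17. Readings of 4 or less count as background. Some 46.6% to 47.9% of probe sets exceeded 4 on the TG arrays, against 45.9% to 46.2% on the WT arrays. The brightest probe sets of the measured B cell markers, among them Cd79b and Ighm, averaged 13.49 to 13.81 on the TG arrays and 13.89 to 14.00 on the WT arrays. All but Ighm were lower in TG (median change -0.27). In limma 0 of 7 passed at an adjusted p under 0.05, and 4 had an unadjusted p under 0.05. Xist, which is transcribed in female cells, was at 13.73 to 13.93 on the TG arrays. On WT replicates 1 to 4 it was at 13.79, 13.61, 2.22 and 2.81. The Y-linked gene Eif2s3y read 9.85 and 11.10 on WT replicates 3 and 4 and 2.17 on every other array. The groups were therefore not balanced for sex-linked expression. In a bulk isolate, fewer cells of a type and less RNA per cell cannot be told apart. Precision is limited by how few arrays there are, and nothing in the labels says that the samples of a group came from separate mice, so a p-value measures only the spread between these samples.

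The question asked of each gene was whether its level differed between the TG and WT isolates. Aqp1, Car1 and the brightest Slc4a1 probe set rose in the TG isolates and were not above background on any WT array. Rhag was above background on 2 of the 3 TG arrays and Rhd on 1, and on no WT array. Car2 was high on all 7 arrays, and Epb42 was above background on none. The brightest Ank1 probe set was just above background on all 7, largely at 1 tied value, and the others were at background. Of the 14 probe sets, 5 were above 4 on at least 3 arrays and were tested, and 3 of these passed limma's test at an adjusted p under 0.05, all higher in TG; over all 20994 probe sets tested, 9.28% passed in either direction and 5.63% as higher. The other 9 were too dim to be tested, and the 3 that passed met the filter through the TG arrays alone, so their count supports nothing by itself.

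**Figure D1:**
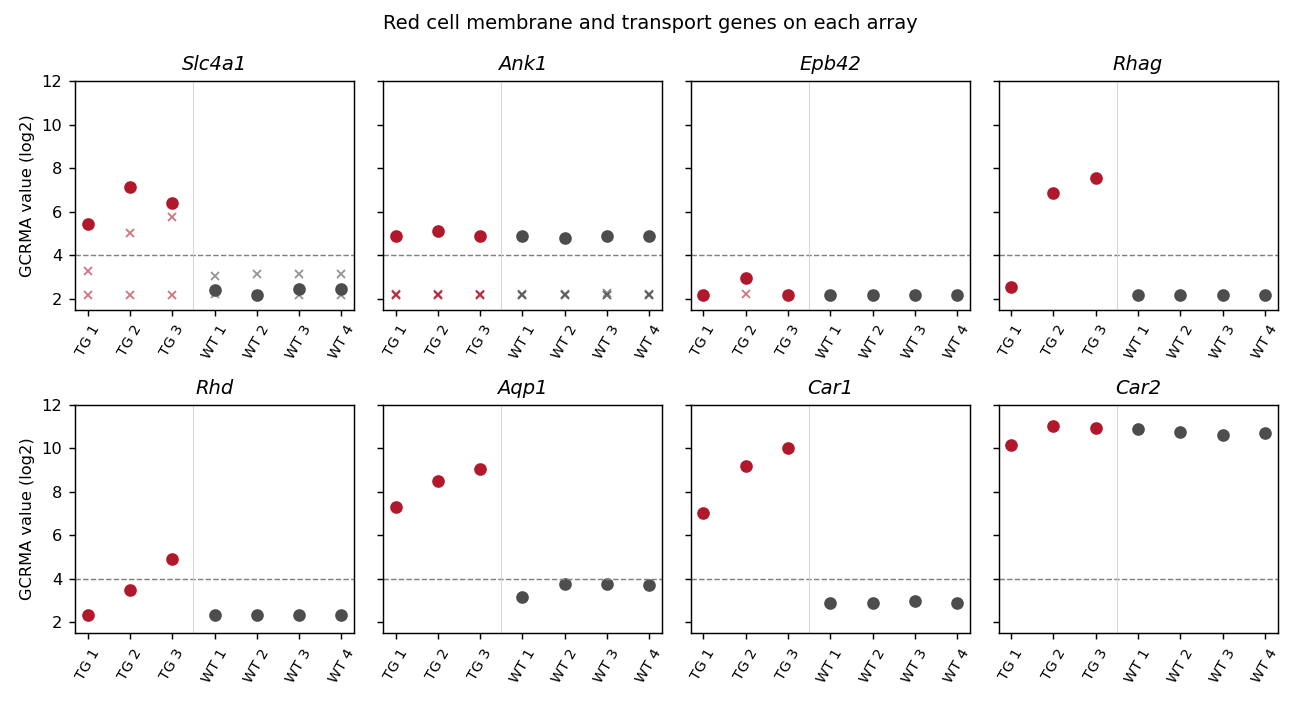
GCRMA value (log2) of each of the 8 genes on the 3 TG arrays (red) and the 4 WT arrays (grey). Filled points are the brightest probe set of a gene, crosses its other probe sets, and the dashed line marks 4, the level treated as background: Aqp1 and Car1 lie above it on each TG array and on no WT array, and Car2 lies between 10.13 and 11.04 throughout.

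Slc4a1, the chloride-bicarbonate exchanger, was measured by 3 probe sets. The brightest, 1434502_x_at, stood at 5.41, 7.13 and 6.39 on TG replicates 1 to 3, against 2.38, 2.17, 2.45 and 2.45 on WT replicates 1 to 4. Every TG array was above background and no WT array was. It was at least 4.96-fold higher in TG (mean 6.31 ± 0.86 SD, n = 3, against the background level of 4; WT mean 2.36 ± 0.13 SD, n = 4; limma adjusted p = 0.0065). The suffix of this probe set marks probes that may also match other transcripts, and the platform annotation gives no accession for it.

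The probe set 1416464_at, which the annotation pairs with a RefSeq messenger of Slc4a1, read 3.27, 5.002 and 5.77 on TG replicates 1 to 3, against 3.04 to 3.13 on the WT arrays. TG replicates 2 and 3 were above background, and TG replicate 1 lay with the WT arrays. Its TG mean of 4.68 ± 1.28 (SD, n = 3) was at least 1.60-fold above background, and in a limma fit of all 45037 probe sets without a filter, in which 0.442% passed, it did not pass (adjusted p = 0.317, unadjusted p = 0.0380). Without TG replicate 1, the TG array on which it was low, the difference was 2.28 (limma adjusted p = 0.0391), an alternative chosen after the data were seen. The third probe set, 1431743_a_at, was at background on every array. The probe sets of Slc4a1 therefore disagree on TG replicate 1, where the brightest reads 5.41 and the others are not above background.

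The messengers of the proteins that tie the exchanger to the skeleton showed no such difference. For Ank1, which encodes the erythroid ankyrin, the probe set 1419421_at read 4.90, 5.11 and 4.90 on the TG arrays and 4.90, 4.78, 4.90 and 4.90 on the WT arrays. The groups overlap at 4.90, just above background, and the difference of 0.10 on the log2 scale (95% interval -0.09 to 0.29, limma adjusted p = 0.415) did not pass. TG replicates 1 and 3 and WT replicates 1, 3 and 4 gave the same value, so this interval and p rest on tied readings. Whether that value is a measured level was not tested. The other 3 Ank1 probe sets lay between 2.17 and 2.28 on all arrays. Epb42 was at 2.17 on every WT array with both probe sets, and its highest reading was 2.97 on TG replicate 2. The levels of Epb42 and of the dimmer Ank1 probe sets are under background, so these probe sets would not show a small amount of either messenger.

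Of the members, Rhag varied most among the TG arrays. Rhag, an ammonia and gas channel that carries the complex to the membrane, read 2.55, 6.87 and 7.55 on TG replicates 1 to 3, against 2.17 on each of the 4 WT arrays. TG replicates 2 and 3 were far above background and TG replicate 1 was under it, a range of 4.998 on the log2 scale within the TG group. The TG mean of 5.66 ± 2.71 (SD, n = 3), at least 3.15-fold above background, did not pass in the limma fit without a filter (difference 3.49 ± 1.23 SE, adjusted p = 0.297, unadjusted p = 0.0323). With TG replicate 1 left out, the one TG array on which Rhag was low and an alternative chosen after the data were seen, the difference was 5.04 and the adjusted p 0.00399, a description of the other 2 arrays and not a test; adjusted p stayed above 0.05 when any other array was left out (0.484 to 0.573).

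Rhd, the mouse Rh polypeptide that pairs with Rhag, read 2.36, 3.48 and 4.92 on TG replicates 1 to 3, against 2.36 on every WT array. Only TG replicate 3 was above background. Its TG mean of 3.59 was under background, so no fold is given, and the limma fit without a filter did not call it (adjusted p = 0.457). Without TG replicate 1 the adjusted p of Rhd was 0.141.

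Promoter windows were in RefSeq's table for 4 of the 8 genes, Rhag, Rhd, Aqp1 and Epb42, and are shown because the first 3 had readings above background in TG alone while Epb42 had none. Each runs from 250 bases before the start of transcription to 50 after it, 5′ to 3′ on the strand of the gene, in GRCm38.p6. Capitals mark matches, on either strand, to AGATAA or TGATAA, letters that GATA factors bind; no window held CCACACCC, letters known from binding of the erythroid factor KLF1.
Rhag (chr17:40810899-40811198, plus strand): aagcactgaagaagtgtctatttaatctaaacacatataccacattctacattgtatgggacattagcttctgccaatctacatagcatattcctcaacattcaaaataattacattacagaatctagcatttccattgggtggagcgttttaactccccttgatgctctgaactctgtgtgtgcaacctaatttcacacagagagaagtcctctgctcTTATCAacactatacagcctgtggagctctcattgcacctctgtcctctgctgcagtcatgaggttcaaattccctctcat
Rhd (chr4:134864286-134864585, plus strand): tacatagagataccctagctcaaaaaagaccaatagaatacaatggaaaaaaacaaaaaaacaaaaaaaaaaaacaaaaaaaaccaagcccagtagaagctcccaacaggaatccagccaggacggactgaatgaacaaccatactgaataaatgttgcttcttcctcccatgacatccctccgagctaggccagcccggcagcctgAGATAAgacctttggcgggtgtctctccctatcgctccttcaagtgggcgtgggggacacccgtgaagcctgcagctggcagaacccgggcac
Aqp1 (chr6:55336049-55336348, plus strand): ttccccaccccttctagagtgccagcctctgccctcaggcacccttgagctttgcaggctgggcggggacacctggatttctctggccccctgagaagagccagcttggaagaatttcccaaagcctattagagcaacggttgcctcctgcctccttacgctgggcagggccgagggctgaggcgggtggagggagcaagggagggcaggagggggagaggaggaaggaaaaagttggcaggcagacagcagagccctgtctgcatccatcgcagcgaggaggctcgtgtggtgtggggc
Epb42 (chr2:121036828-121037127, minus strand): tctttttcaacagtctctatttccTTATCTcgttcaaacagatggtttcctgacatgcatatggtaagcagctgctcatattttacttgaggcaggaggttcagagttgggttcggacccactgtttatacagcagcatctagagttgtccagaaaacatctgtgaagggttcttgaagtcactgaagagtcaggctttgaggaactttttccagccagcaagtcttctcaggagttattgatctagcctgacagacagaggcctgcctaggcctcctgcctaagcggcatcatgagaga

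The Rhag window holds 1 match, to TGATAA read on the opposite strand, which begins 31 bases before the start. The Rhd window holds 1 match to AGATAA on the gene's own strand, 43 bases before it. The Epb42 window also holds 1 match to AGATAA, on the opposite strand 226 bases before the start, and the Aqp1 window holds none. Over all 32851 windows of the table, 18.6% hold AGATAA or TGATAA and 3.56% hold CCACACCC. The general E-box CANNTG was found 0 times in the window of Rhag, 2 times in that of Rhd, 1 time in that of Aqp1 and 4 times in that of Epb42, and 72.3% of all windows hold it. A match is a string of letters and not a measured binding site.

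Aqp1, the water channel, has 1 probe set, 1416203_at, which read 7.30, 8.52 and 9.04 on TG replicates 1 to 3, against 3.18, 3.77, 3.77 and 3.74 on WT replicates 1 to 4. The lowest TG array lay far above the highest WT array, and no WT array was above background. Aqp1 was at least 19.5-fold higher in TG (8.29 ± 0.90 SD, n = 3, against the background level; WT 3.61 ± 0.29 SD, n = 4; limma adjusted p = 0.00543).

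The carbonic anhydrases differed from each other. Car1, the isoform most abundant in red cells, read 7.04, 9.19 and 10.02 on TG replicates 1 to 3, against 2.91, 2.91, 2.99 and 2.91 on WT replicates 1 to 4. Every TG array lay far above the WT arrays, none of which was above background, and Car1 was at least 26.9-fold higher in TG (8.75 ± 1.53 SD, n = 3; WT 2.93 ± 0.04 SD, n = 4; limma adjusted p = 0.00942). The call of Car1 was lost without TG replicate 2 (adjusted p = 0.0561), where the difference was 5.60.

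Car2, the fast and widely expressed isoform, read 10.13, 11.04 and 10.93 on TG replicates 1 to 3, against 10.86, 10.74, 10.61 and 10.72 on WT replicates 1 to 4. The groups overlap, with TG replicate 1 below all WT arrays and TG replicates 2 and 3 above them. The difference was -0.03 (95% interval -0.55 to 0.49, limma adjusted p = 0.937), so a change in either direction by less than about that interval would not have been seen. Without TG replicate 1 it was 0.25 (adjusted p = 0.113). Car2 was the only member that the WT isolates held far above background.

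The calls were examined beside sex-linked expression, which was not balanced between the groups. WT replicates 3 and 4, the WT arrays on which Xist was low, were left out of 1 fit. There the differences of Slc4a1, Aqp1 and Car1 were 4.03, 4.81 and 5.84, where with all 7 arrays they were 3.95, 4.67 and 5.82. Limma adjusted p was 0.110, 0.109 and 0.118, so none passed. That fit had 2 fewer arrays, and 15 of 20994 probe sets passed. With the Xist level as a covariate all 3 passed (adjusted p = 0.0396, 0.0384 and 0.0465). The readings of the 3 genes were at background on all WT replicates. Xist was high on every TG array, and the part of sex-linked expression in the differences was not tested.

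The order of the TG arrays was compared among the probe sets that were above background in TG alone, which were picked by that reading. Of the 6 probe sets of Slc4a1, Rhag, Rhd, Aqp1 and Car1 that were above background on some TG array, all 6 were lowest on TG replicate 1, 5 were highest on replicate 3 and 1, the brightest of Slc4a1, on replicate 2. TG replicate 3 exceeded TG replicate 1 by 1.74 for Aqp1, 2.98 for Car1, 2.56 for Rhd and 4.998 for Rhag on the log2 scale. Against this the WT arrays spanned 0.59 for Aqp1, 0.08 for Car1 and 0.004 for Rhag, all under background. Counted by position relative to background, 3 of the 14 probe sets (21.4%) were at or under 4 on every WT array and above it on every TG array, where 0.413% of all 45037 probe sets were; with 2 TG arrays required the numbers were 5 of 14 (35.7%) and 0.719%. Car2 was lowest on TG replicate 1 and highest on TG replicate 2, and Ank1 was equal on TG replicates 1 and 3 and highest on TG replicate 2.

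Erythroid markers were set beside the members. Klf1, Nfe2, Tal1 and Hemgn were higher in TG, and Tfrc and Hba-a2 were tested and did not pass. Of 16 markers listed, 11 were measured by a probe set of their own, 6 were tested and 4 rose, 66.7% against 8.11% of all 9517 genes tested that were higher, with 0 lower; the median change of the 6 was 3.70, against 0.00 over all genes tested. The 4 that rose met the filter through the TG arrays alone, since none was above 4 on a WT array, so this share and this median are partly set by the filter and support nothing by themselves. The list's mean level was 4.51, 5.65 and 5.85 on TG replicates 1 to 3 and 3.32 to 3.60 on the WT arrays. These markers were chosen with earlier results of these arrays known.

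Klf1, the erythroid Krüppel-like factor known to activate many membrane genes, read 4.46, 7.13 and 7.496 on TG replicates 1 to 3 and 2.202 on every WT array, at least 5.14-fold higher (limma adjusted p = 0.0235). Nfe2, a factor of erythroid and platelet precursors, read 6.32, 6.89 and 8.04 on TG replicates 1 to 3 and 2.55 to 3.68 on the WT arrays, at least 8.49-fold higher (limma adjusted p = 0.0126). Tal1 and Hemgn, also regulators of blood and erythroid precursors, were at least 5.93-fold and 4.90-fold higher (limma adjusted p = 0.0145 and 0.0241). All 4 were lowest on TG replicate 1 and highest on replicate 3, as Car1, Aqp1, Rhag and Rhd were. This order was not particular to erythroid genes. The mean levels of the blood progenitor, platelet, T cell, natural killer and macrophage marker lists had it too. The share of all probe sets with this order was not counted. The number of erythroid markers called was 4. It was 0 without TG replicate 2, 1 without WT replicate 2 and 2 without WT replicate 1, 3 or 4. It was also 2 without both TG replicate 3 and WT replicate 4. Nfe2 alone was called when Xist entered the fit as a covariate, with values under 4 set at 4 or with the filter on the mean Nfe2 and Tal1 were, and without a filter 0 of them passed in limma, where 7 of the list had an unadjusted p under 0.05.

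Gata1, the factor that directs the erythroid programme, was under the filter at 3.76, 5.17 and 6.33 on TG replicates 1 to 3, against 2.31 to 2.51 on the WT arrays. Alas2, the erythroid enzyme that starts haem synthesis, reached 3.57 on TG replicate 2 and was at 2.17 on every WT array. Epor, the erythropoietin receptor, reached 2.74 on a TG array, also under background. The beta-globin gene Hbb-b2 was above background on TG replicate 2 alone, at 4.29, and Hba-a1 was at the lowest value on all 7 arrays. The alpha-globin gene Hba-a2 was at 6.36 ± 0.13 in TG (SD, n = 3) and 6.70 ± 0.16 in WT (SD, n = 4), a difference of -0.34 that did not pass (limma adjusted p = 0.098). Tfrc, the transferrin receptor of dividing cells and erythroid precursors, did not pass either (0.76, adjusted p = 0.152). Probe sets annotated to several globin genes at once were not used.

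**Figure D2:**
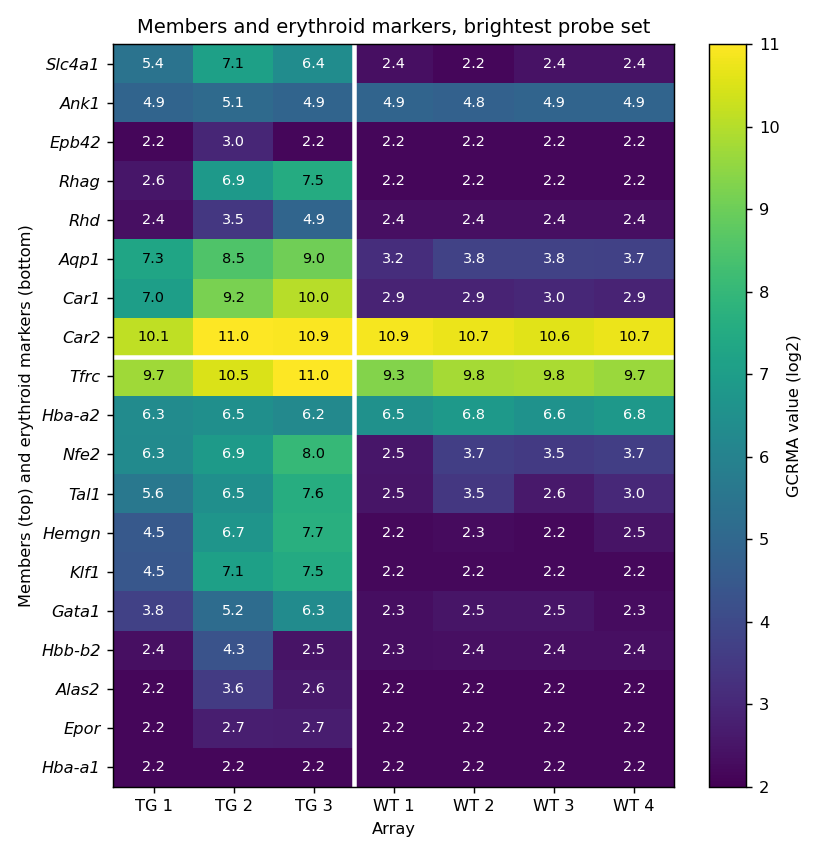
GCRMA value (log2, colour and printed number) of the brightest probe set of the 8 members (top) and of the 11 measured erythroid markers (bottom) on 3 TG and 4 WT arrays. Car1, Aqp1, Rhag, Klf1, Hemgn and Gata1 are high on TG replicates 2 and 3 and lower on TG replicate 1, while Epb42, Alas2, Epor and Hba-a1 stay under 4 on each array.

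Other genes of the red cell skeleton, surface and transport systems were taken as a companion list. By the brightest probe set of each gene, a minority rose and none fell. Of 41 listed, 35 were measured, 23 were tested, 5 rose and 18 did not pass. This is 21.7% called, against 8.11% of all genes tested that were higher and 10.7% called in either direction. The median change was 0.41, against 0.00 over all genes tested. The 5 were Stom, Cldn13, Bsg, Abcb6 and Gypc. The number of companion genes called was 0 without TG replicate 2 or WT replicate 2. It was 1 without WT replicate 3 and 2 without WT replicate 1 or 4. Without TG replicate 1 it was 8, of which 4 were among the 5 named. Without TG replicate 3 it was again 5, of which 3 were among the 5 named. Cldn13 was not above 4 on any WT array and met the filter through the TG arrays alone, so the share called is partly set by the filter.

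Cldn13, a claudin of mouse red cell precursors, read 4.10, 5.73 and 6.55 on TG replicates 1 to 3 and 2.47 to 2.63 on the WT arrays, at least 2.75-fold higher (limma adjusted p = 0.0262). Stom, which encodes the red cell membrane protein stomatin and is also made in many other cells, read 8.20, 8.63 and 9.06 in TG and 7.04 to 7.33 in WT, a difference of 1.41 ± 0.20 (SE, limma adjusted p = 0.0164). Both had the TG order of Car1 and Aqp1, replicate 1 lowest and replicate 3 highest. Abcb6, a transporter of the mitochondrial and plasma membranes, rose by 0.61 (limma adjusted p = 0.0325), Gypc, a glycophorin that binds the skeleton, by 0.68 (0.0423), and Bsg, the carrier of lactate transporters, by 0.41 (0.0280); these genes were above background on every WT array.

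Among the brightest companion genes that did not pass were Tpm3 and Tmod3, which cap and stabilise actin filaments, at 0.04 and -0.43, and Cd47, the signal that protects cells from engulfment, at -0.02. Some dimmer probe sets of genes not called by their brightest one did pass: 1 of Tmod3 as lower (-0.57, limma adjusted p = 0.0336), and as higher 1 of Tspan33 (3.03, adjusted p = 0.0240) and 2 of Cd44 (0.82 and 0.83, adjusted p = 0.0415 and 0.0377). Of the companion genes that the filter left out, Ermap, an erythroid membrane protein, showed the pattern of Rhag, at 3.11, 6.34 and 7.34 on TG replicates 1 to 3 and 2.17 to 2.21 on the WT arrays. Kel, a blood group antigen, reached 3.90 on TG replicate 3. Sptb, the beta-spectrin gene that ankyrin binds, and Dmtn, a skeleton protein, were highest at 2.28 and 2.30, under background; Ermap, Kel, Sptb and Dmtn were named after their values were seen.

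**Figure D3:**
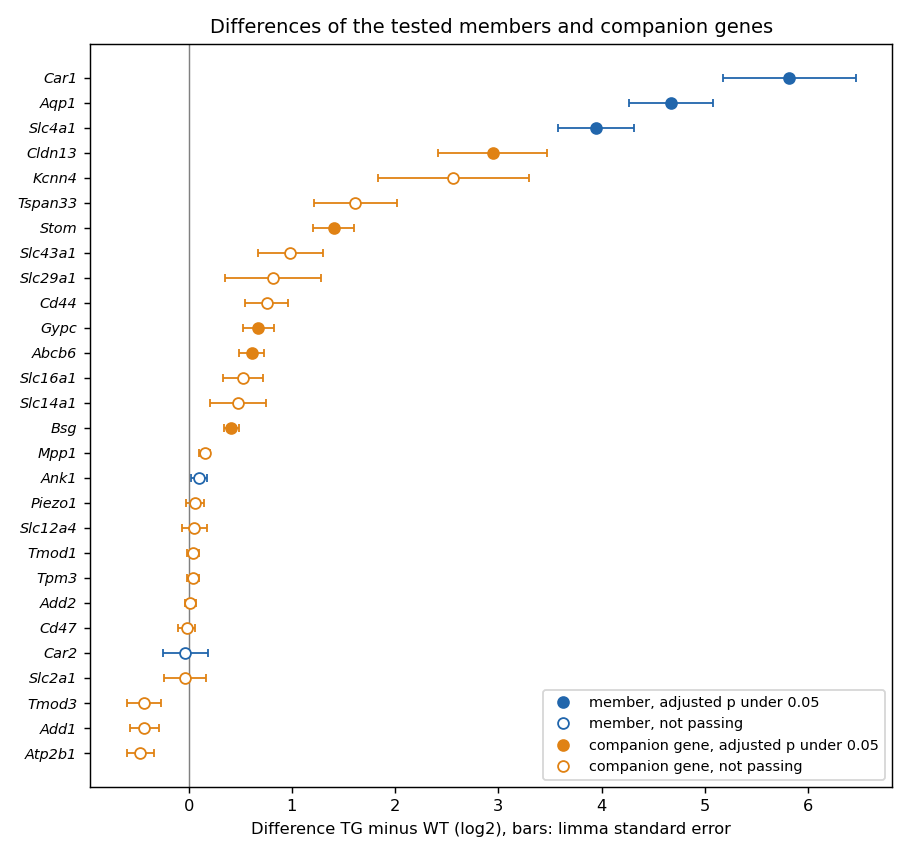
Difference TG minus WT (log2) with its limma standard error for the 5 tested member probe sets (blue) and the 23 tested companion genes (orange), filled where the adjusted p was under 0.05. Car1, Aqp1 and Slc4a1 lie at 5.82, 4.67 and 3.95 as fitted, which are not exact because their WT readings are under background, and Ank1 and Car2 lie near 0.

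Relatives of the members in the same protein families mostly read at background, where a small amount of messenger would not show. Of 42 listed relatives among anion exchangers, ankyrins, Rh glycoproteins, aquaporins, carbonic anhydrases and transglutaminases, 40 were measured and 34 of them were at or under 4 on every array, 20 at the lowest value throughout. On a single array 45.9% to 47.9% of all probe sets exceeded 4. The share of all genes at or under 4 on every array was not counted. Of the 6 tested, 0 passed in limma and 1, Tgm2, had an unadjusted p under 0.05. Over all genes tested 10.7% passed in either direction, so with 6 genes this count says nothing about the families. Slc4a2, the exchanger of most other cells, was at 8.75 ± 0.26 in TG (SD, n = 3) and 9.04 ± 0.21 in WT (SD, n = 4; limma adjusted p = 0.275), and Slc4a11 differed by -0.15 without passing (adjusted p = 0.527). Tgm2, a transglutaminase of the family that Epb42 resembles, read 8.18, 8.79 and 10.79 on TG replicates 1 to 3 and 6.72, 7.12, 4.24 and 6.13 on WT replicates 1 to 4, a difference of 3.20 ± 0.87 (SE) with a limma adjusted p of 0.0673.

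The genes with profiles most like those of the members were found by the root-mean-square difference over the 7 arrays, each profile centred on its own mean, among 9512 other genes. Nearest to Aqp1 were Anxa3 and Tspoap1 (0.28 and 0.35 on the log2 scale). Nearest to Car1 were Emb and Cst7 (0.45 and 0.45), and nearest to Slc4a1 were Serpinf1 and Tifab (0.43 and 0.45). Nearest to Car2 were 0610040B10Rik and Ifit1bl2 (0.12 and 0.15), and to Ank1, whose profile was nearly flat, Telo2 and Tmco3 (0.02 and 0.03). All points are the same 7 arrays, so these are descriptions of likeness and carry no test.

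Markers of other cells differed between the groups as well. Granulocyte markers averaged 9.35, 7.96 and 8.84 on TG replicates 1 to 3 and 2.77 to 3.69 on the WT arrays. Of these, 6 of 6 tested genes were higher, where 8.11% of all genes tested were higher and 2.56% lower. Ctsg, S100a8 and S100a9 were above 4 on no WT array, and Mpo and Prtn3 on 1, so they met the filter through the TG arrays. The count of 6 is thus partly set by the filter and supports nothing by itself. Mpo and Elane, enzymes of early granulocyte precursors, were 9.36 and 7.54 higher as fitted and had the TG order of Car1 and Aqp1, replicate 1 lowest. Ltf and Camp, genes of later granules named after their values were seen, had another order, with 5.15 and 6.67 on TG replicate 1 and background levels on TG replicates 2 and 3. Ngp of the same list, also named after its values were seen, was highest on TG replicate 1 too, at 7.68. It read 2.34 on TG replicate 2 but 5.80, above background, on TG replicate 3. Blood progenitor markers averaged 6.14, 6.62 and 7.95 on TG replicates 1 to 3 and 4.05 to 4.33 in WT, with 4 of 4 tested genes higher, Myb and Flt3 among them (3.75 and 1.86). Cd34 was above 4 on no WT array and Kit on 2, so this count too is partly set by the filter. Over the alternatives limma adjusted p reached 0.134 for Myb, 0.115 for Flt3, 0.0561 for Mpo and 0.0563 for Elane, so these calls too were lost under some of them. Summed over the list before taking log2, erythroid markers lay at 10.15 to 11.60 in TG and 9.62 to 10.06 in WT, granulocyte markers at 13.94 to 14.95 and 6.12 to 7.94, and progenitor markers at 9.72 to 11.91 and 7.17 to 7.56.

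Platelet and megakaryocyte markers averaged 10.24 to 11.23 in TG and 6.72 to 8.94 in WT. Of these, 2 of 5 tested genes were higher, where 8.11% of all genes tested were higher. Pf4 rose by 3.01 and Ppbp did not pass (2.21, limma adjusted p = 0.0645). The calls of Pf4, Klrk1 and Spic were lost under some alternatives (highest limma adjusted p 0.154, 0.122 and 0.132). T cell markers averaged 3.54, 3.84 and 8.05 on TG replicates 1 to 3 and 3.10 to 3.19 in WT, and Cd3e read 6.13 on TG replicate 3 and 2.17 elsewhere; 0 of 2 tested genes passed in limma, both with an unadjusted p under 0.05. Natural killer markers averaged 4.60 to 6.54 in TG and 3.29 to 3.48 in WT, with Klrk1 at least 3.78-fold higher and Prf1 not passing (0.80, limma adjusted p = 0.0929). Klrk1 was above 4 on no WT array and met the filter through the TG arrays alone, so its call supports nothing by itself. Macrophage markers averaged 5.28 to 6.52 in TG and 4.56 to 5.59 in WT; Spic fell by 0.99 and Csf1r did not pass (2.70, limma adjusted p = 0.123). Of 5 endothelial markers, cells that also make Aqp1, 4 were not above background on any array, Plvap among them, and Pecam1, which blood cells make too, did not pass (-0.39, limma adjusted p = 0.0693). The part of other blood cells, or of endothelial cells, in the readings of the members was not tested.

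**Figure D4:**
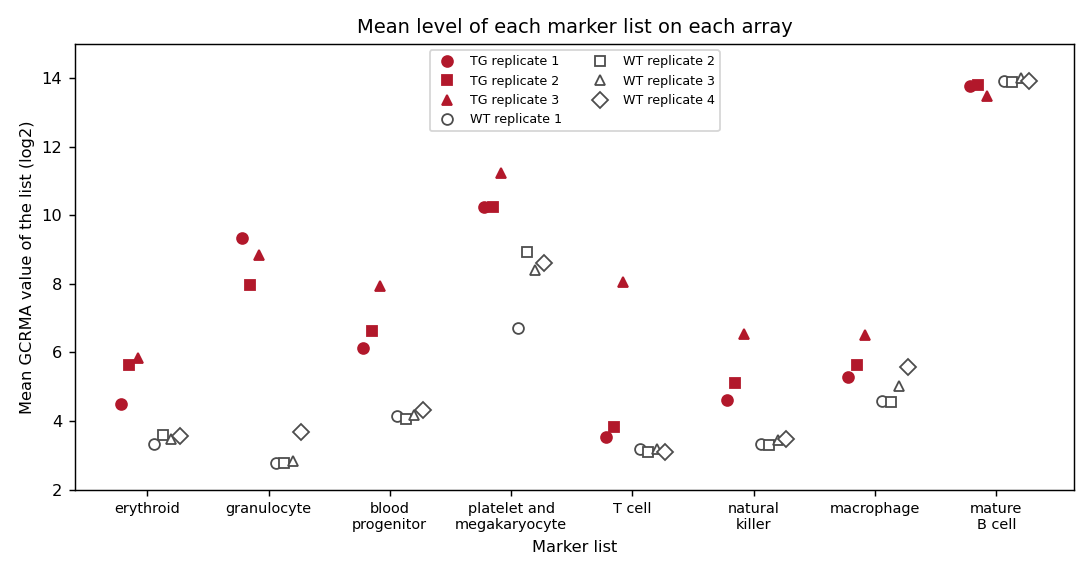
Mean GCRMA value (log2) of each marker list on the 3 TG arrays (red, filled) and the 4 WT arrays (grey, open), 1 symbol per replicate. Within TG, the erythroid, blood progenitor, platelet, T cell, natural killer and macrophage means are lowest on TG replicate 1. The granulocyte mean is highest there. T cell markers stand at 8.05 on TG replicate 3, and mature B cell markers lie between 13.49 and 14.00 throughout.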

How the data were processed

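Total RNA from 3 TG and 4 WT splenic B cell isolates was labelled with biotin and hybridised to 1 array per sample, per the labels' protocols. Log2 values were deposited by the authors; GCRMA (version not stated) is the one tool named in the submitters' processing notes. This method models background by probe sequence, normalizes by quantiles and combines probes, so dim genes are compressed and 35.6% to 37.1% of values on an array lie at 2.17. Scanner files and scan dates were not used here, so no batch could be examined. Each array's precision rests on the number of arrays.

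Of 45101 probe sets, 64 controls were left out. Of the rest 34945 name 1 gene, 932 several and 9160 none in the platform annotation; genes were named only from the first. Symbols looked up by Entrez identifier in RefSeq (GRCm38.p6) changed 0 names; no source used here names the array's build. Probe sets above 4 on at least 3 of 7 arrays, whatever their group, were tested with limma 3.58.1 in R 4.3.3 (lmFit, eBayes with trend, prior degrees of freedom 1.68, Benjamini-Hochberg over all 20994, adjusted p under 0.05). For listed genes the brightest probe set by mean of the 7 arrays was taken. Where no WT array exceeded 4, the fold printed is a lower bound, the TG mean over 4; its fitted difference is not exact. The procedure was tested on simulated data. 

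Members, lists and the rule for named genes were chosen with earlier results of these data known. The rule names all members; of each companion list up to 6 genes that passed, by p, and up to 3 others by level; the 2 nearest profiles of each member; and 2 bright genes of each other marker list. The alternatives varied the filter, normalization, variance model, weights, floor, threshold, Xist covariate, replicate block and left-out arrays.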

Additional observations from a re-analysis of the deposited data

Results flagged for a closer look

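Among the WT arrays a single value stood apart from the other 3 for 8 genes, by the gap to its neighbour relative to the range. In all, 34 genes, probe sets and list means with a WT value above 4 were examined. Chance gives about 1 in 20 for values without ties. For Ank1 and Elane the other 3 WT values were equal, so any differing value would have been flagged and this rate does not apply. For Tpm3, WT replicates 3 and 4 were equal, so the rate does not apply to it either. Ank1 read 4.78 on WT replicate 2 and 4.90 on the others. Among companion genes, Abcb6 read 6.77 on WT replicate 4 against 6.43 to 6.47, Tpm3 13.95 on WT replicate 1 against 14.14 to 14.17, and Cd47 12.84 on WT replicate 1 against 12.69 to 12.71. Slc4a2 read 9.36 on WT replicate 3 against 8.90 to 8.95. Among markers of other cells, Mpo read 6.95 and Elane 5.46 on WT replicate 4, against 2.85 to 3.23 and 4.17 on the others, and Pecam1 read 10.90 on WT replicate 2 against 10.63 to 10.67.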

How the results depend on the processing

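The differences of Slc4a1, Aqp1 and Car1 kept their sign under all 19 alternatives, from 2.31 to 4.47, 4.29 to 5.17 and 4.75 to 6.67, with limma adjusted p from 0.00106 to 0.132, 0.000497 to 0.109 and 0.000449 to 0.133. Calls were lost under the replicate block (0 of 5 member probe sets called, 3 at an unadjusted p under 0.05), with WT replicates 3 and 4 left out (0 called, 3 unadjusted) and, for Car1, also without a filter (adjusted p = 0.0505) and without TG replicate 2. Leaving out 1 array in turn left 2 to 3 member calls. Signs turned for Ank1 under quantile normalization (-0.13) and for Car2 with array weights (0.14), without TG replicate 1 (0.25) and without WT replicate 1 (0.01), none of them passing; with 1 array left out Car2 ran from -0.20 to 0.25. The 1949 probe sets called became 199 without a filter, 5945 with array weights, 4 with the replicate block, 277 with the Xist covariate, 15 without WT replicates 3 and 4, 687 without TG replicate 3 and WT replicate 4, 603 with a change of at least 1 required, and 138 to 2149 with 1 array left out. The 5 companion calls became 14 with array weights, 8 with the probe set of largest variance, 2 with a change of at least 1, 1 without TG replicate 3 and WT replicate 4, and 0 without a filter, with the block, with the Xist covariate or without WT replicates 3 and 4 (18, 11, 10 and 8 at an unadjusted p under 0.05); with 1 array left out they ran from 0 to 8. The 4 erythroid calls became 2 with the filter on the mean, 2 with values under 4 set at 4, 2 without TG replicate 3 and WT replicate 4, 1 with the Xist covariate, and 0 without a filter, with the block or without WT replicates 3 and 4 (7, 6 and 4 unadjusted); with 1 array left out they ran from 0 to 5. The 0 calls among family relatives became 1 with quantile normalization and 1 with array weights. Fewer arrays enter the block and left-out fits; the cause of the other moves was not tested. The labels do not say that replicate numbers pair mice, so the block was kept as an alternative. The block also leaves out WT replicate 4. Same-numbered arrays gave Pearson's r of -0.09, -0.14 and -0.26 across probe sets. With each group centred on its own 3 arrays, these values cannot show whether mice were paired.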
